A study of Homo sapiens with 12 samples.

Results

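The genes described here are 39 members of the integrated stress response, the program that the transcription factor ATF4 drives when cells run short of amino acids or accumulate misfolded proteins. They were listed by gene name, without a threshold on measured values, and all 39 were found among the 58233 genes of the deposited count table. They comprise 14 stress regulators, 11 enzymes of amino-acid synthesis and one-carbon metabolism, 7 amino-acid transporters and a set of 7 genes with 6 tRNA synthetases and the tRNA exporter XPOT. Of the 16657 genes that had enough counts to be tested, 37 were members. The other 2 were NUPR1, with between 0 and 6 counts per library, and VLDLR, which had 0 counts in all 12 libraries. A count of 0 allows up to 3 counts per library, which covers counting error only and equals between 0.205 and 0.247 CPM (counts per 1000000 counts of the library).

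In the integrated stress response, the kinases PERK, GCN2, PKR and HRI phosphorylate the translation initiation factor eIF2alpha, which lowers general protein synthesis but favours translation of the ATF4 mRNA. ATF4 then pairs with C/EBP and other bZIP proteins at composite DNA elements and raises the transcription of genes for amino-acid synthesis, uptake and tRNA charging, and of regulators such as CHOP (encoded by DDIT3) and TRIB3. The response is reversed by protein phosphatase-1 (PP1), which dephosphorylates eIF2alpha in complex with GADD34 (PPP1R15A) or CReP (PPP1R15B).

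RNA was sequenced from HCT116 cells, a human colorectal carcinoma line, to learn what changes when SDS22, a conserved binding partner of PP1, is degraded. Parental HCT116 Tet-OsTIR1 cells carry a doxycycline (Dox)-inducible OsTIR1 transgene at the AAVS1 locus, and SDS22-degron cells carry, in addition, the mAID-mClover tag on endogenous SDS22. The latter were obtained from individual colonies after selection in hygromycin and G418, so that effects of the tag and of the clone cannot be told apart. Either line was left untreated or received 2 µg/ml Dox plus 500 µM of the auxin IAA for 48 h. All 4 groups were grown in low-glucose medium and had 3 libraries, which the labels call biological replicates.

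The libraries held from 12133915 to 14657508 gene-assigned reads, and levels are given below as CPM after TMM normalization. The colon epithelial genes EPCAM, KRT8, KRT18, KRT19 and CDH1 exceeded 1 CPM in every library, while CDH17 had 0 counts and VIL1 and LGALS4 at most 2 counts. Of 7 markers of other cell types, COL1A1 and ACTA2 exceeded 1 CPM in every library. COL1A1 ranged from 9.88 to 13.4 CPM in untreated and from 17.2 to 22.8 in treated parental cells, and from 13.6 to 15.7 in untreated and 21.2 to 31.7 in treated SDS22-degron cells. ACTA2 stood between 16.0 and 23.8 CPM in treated SDS22-degron cells and between 4.73 and 9.26 CPM in the other 9 libraries. The other 5 had 0 to 7 counts per library, with CD3E and COL1A2 at 0. The 7 summed to between 14.7 and 19.6 CPM in untreated parental, 22.8 and 29.2 in treated parental, 23.1 and 24.1 in untreated SDS22-degron and 37.3 and 55.8 in treated SDS22-degron cells, and their part in the results was not tested. The SDS22 transcript (PPP1R7) stood between 40.1 and 51.1 CPM in all 12 libraries. Dox/IAA acts on the protein, so this level does not measure the depletion.

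To show what the members' promoters share, RefSeq promoter windows (GRCh38.p14, 250 bases before to 50 bases after the start site) were searched for TGATGNAA, the core of the composite C/EBP-ATF element, on both strands (TTNCATCA on the reverse). Windows were matched for 33 members. They were not matched for NUPR1, PSPH, SHMT2, ALDH1L2, PYCR1 and GPT2. The core was found in 8 of the 33 (24.2%) and in 1046 of all 27305 windows (3.83%). By group, it was found in 2 of 13 stress regulators, 3 of 7 transporters, 3 of 7 tRNA synthetase and export genes and 0 of 6 synthesis enzymes. The 5 matches that lie wholly before the start site are printed below on the strand of the gene, with the core in capitals. CHAC1 at chr15:40953251-40953280 (+), CEBPG at chr19:33374060-33374089 (+), SLC1A5 at chr19:46784893-46784922 (-), AARS at chr16:70289675-70289704 (-) and GARS at chr7:30594834-30594863 (+) are shown.
CHAC1: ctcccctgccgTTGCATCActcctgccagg
CEBPG: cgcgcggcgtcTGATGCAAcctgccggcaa
SLC1A5: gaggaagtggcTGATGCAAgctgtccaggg
AARS: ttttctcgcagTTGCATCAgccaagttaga
GARS: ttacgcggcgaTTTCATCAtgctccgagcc
CEBPG and SLC1A5 hold the core on the strand of the gene and the other 3 on the opposite strand. The distance from the first base of the match to the start site was 209 bases for CHAC1, 42 for CEBPG, 97 for SLC1A5, 187 for AARS and 33 for GARS. The remaining matches, in SLC7A1, SLC1A4 and MARS, reached or followed the start site. A match describes these letters only and does not show binding. The lack of a match covers the searched window only and does not show that a member lacks the element. The window of PHGDH, for example, lay at chr1:119711684-119711983, inside the gene, which starts at 119659798.

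Replicate 1 of untreated parental cells stood apart from replicates 2 and 3 in these genes. DDIT3 stood at 207.2 CPM there against 13.9 and 20.4, a level 12.2-fold the mean of the other replicates, and ranked 1 of all 16657 tested genes in this deviation. CHAC1 ranked 4 (3.51-fold), DDIT4 ranked 9 (3.21-fold), ATF3 ranked 15 (2.71-fold), SESN2 ranked 36 (2.44-fold) and TRIB3 ranked 84 (2.09-fold). Of the 37 tested members, 33 were highest in this library, against 33.3% of all tested genes, and 6 were more than 2-fold above the other replicates, against 0.636% of all tested genes. Genes outside the members moved with it: all 12 targets of ATF6 and XBP1, which serve protein folding in the endoplasmic reticulum, were above both other replicates, with a median log2 deviation of 0.90 (0.41 to 2.56). For the 4 eIF2 kinases the median was -0.06, with EIF2AK3 (PERK) at 0.83, and for 8 tRNA synthetases outside the members it was -0.02. The cause of the difference was not tested. The parental and untreated-line values below are therefore set beside those without this library, singly or as counts and medians. Other libraries deviated less: treated parental replicate 2 had the lowest ATF4 of all 12 libraries, and treated SDS22-degron replicate 1 was highest of its group in 30 of the 37 members, against 35.9% of all tested genes.

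In SDS22-degron cells, 8 of 11 enzymes, 3 of 7 transporters and 4 of 7 genes of tRNA charging and export fell upon Dox/IAA, while SESN2, CTH and ALDH1L2 rose. With edgeR's quasi-likelihood test, 17 of 37 members were lower and 3 higher at an adjusted p under 0.05, against 25.5% lower and 26% higher among all tested genes. The median log2 fold change of the members was -0.19, against 0.005 for all tested genes. In parental cells, 33 of 37 members were lower (15.7% of all genes) and 0 higher (15.9% of all genes), with a median of -0.61 against 0.002. At an unadjusted p under 0.05, 34 were lower and 0 higher in parental cells, where 6945 of 16657 genes passed in either direction. DESeq2 and the likelihood ratio test also called 0 higher (2466 and 2773 of 16657 genes). Without untreated parental replicate 1, 26 members were still lower in parental cells (13.4% of all genes) and 0 higher (12.5% of all genes), and the median was -0.44. In these bulk samples, a lower level in every cell and the loss of some expressing cells cannot be told apart.

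**Figure D1:**
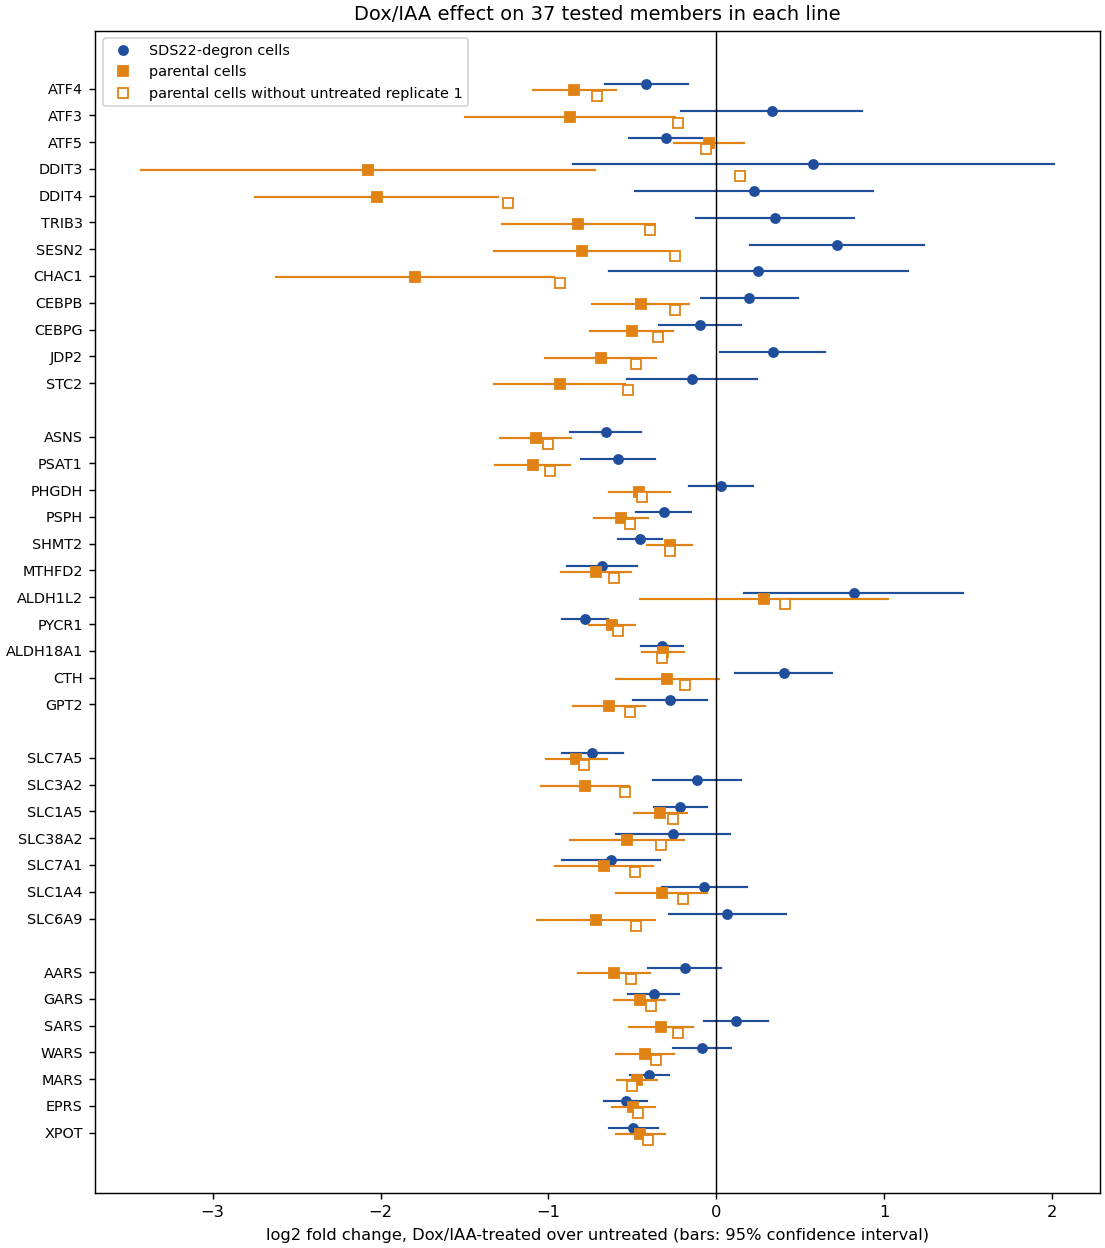
Log2 fold change of each tested member by Dox/IAA (x axis), with 95% confidence intervals, in SDS22-degron cells (blue circles) and parental cells (orange squares). Open squares give the parental value without untreated replicate 1. The blocks, from the top, are stress regulators, amino-acid synthesis and one-carbon enzymes, transporters, and tRNA synthetases with XPOT. The lower 3 blocks lie mostly left of 0 in both lines. In the top block the parental intervals of DDIT3, DDIT4 and CHAC1 are the widest, and DDIT3 moves from -2.07 to 0.14 without the library.

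Among the stress regulators, ATF4 mRNA itself fell upon Dox/IAA in both lines. ATF4 (chr22:39519695-39522685, GRCh38) stood at 626.1, 441.6 and 510.5 CPM in untreated parental replicates 1 to 3 and at 335.7, 236.6 and 306.3 CPM in the treated ones. In SDS22-degron cells its levels were 509.8, 495.1 and 519.4 CPM untreated and 421.9, 359.2 and 361.1 CPM treated. All treated libraries were below all untreated libraries of their line. The log2 fold change was -0.84 ± 0.12 (SE, adjusted p = 4.73e-05) in parental and -0.42 ± 0.12 (adjusted p = 0.00638) in SDS22-degron cells by edgeR's quasi-likelihood test. It was -0.71 in parental cells without untreated replicate 1.

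DDIT3, which encodes the pro-apoptotic factor CHOP, rested on 1 library in parental cells. DDIT3 (chr12:57516588-57520517) stood at 207.2, 13.9 and 20.4 CPM in untreated parental replicates 1 to 3 and at 26.0, 11.1 and 19.8 CPM in treated ones. In SDS22-degron cells it was at 17.9, 17.8 and 15.2 CPM untreated and at 28.5, 27.4 and 20.1 CPM treated. The parental groups overlapped, whereas the 3 treated SDS22-degron libraries were all above the untreated ones. The parental log2 fold change was -2.07 ± 0.64 (adjusted p = 0.0199, edgeR's quasi-likelihood test), and 0.14 (adjusted p = 0.708) without untreated replicate 1. In SDS22-degron cells it was 0.58 ± 0.68 (adjusted p = 0.502), where all groups share an estimate of the spread, and 0.56 (adjusted p = 0.032) without that parental library. DDIT3 overlaps MARS on the opposite strand by 982 bases, and the strand setting of the counting is not given in the sources used here. MARS stood at 279.6 CPM in untreated parental replicate 1, against 294.5 and 287.4 in the other replicates.

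CHAC1 degrades glutathione, and DDIT4 (also REDD1) inhibits mTORC1. CHAC1 (chr15:40952962-40956519), whose promoter window holds the core shown above, stood at 82.3, 23.3 and 23.4 CPM in untreated and 13.7, 5.53 and 17.7 CPM in treated parental replicates. In SDS22-degron cells, CHAC1 was at 11.8, 14.4 and 10.8 CPM untreated and at 16.4, 13.9 and 13.8 CPM treated, and these groups overlapped. The parental log2 fold change was -1.80 ± 0.39 (adjusted p = 0.00206 by edgeR's quasi-likelihood test), and -0.93 (adjusted p = 0.0123) without replicate 1. DDIT4 (chr10:72273920-72276036) stood at 335.5, 95.6 and 113.9 CPM in untreated and at 60.1, 25.6 and 48.0 CPM in treated parental cells. Its levels in SDS22-degron cells were 68.9, 65.0 and 67.5 CPM untreated and 88.2, 80.1 and 66.9 CPM treated. For DDIT4 the treated parental libraries were the lowest of all 12, and its fall of -2.02 ± 0.35 (adjusted p = 0.000259) was -1.24 (adjusted p = 0.000287) without replicate 1. Neither gene passed the test in SDS22-degron cells, where the log2 fold changes were 0.25 ± 0.42 and 0.22 ± 0.34.

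SESN2, which encodes the leucine-binding mTORC1 inhibitor sestrin-2, was the stress regulator that rose in SDS22-degron cells. SESN2 (chr1:28259527-28282491) stood at 30.4, 31.8 and 34.6 CPM in untreated and 52.0, 52.3 and 55.3 CPM in treated SDS22-degron cells. In parental cells its levels were 95.7, 36.2 and 42.3 CPM untreated and 36.2, 24.02 and 39.3 CPM treated. Its rise in SDS22-degron cells was 0.72 ± 0.25 on the log2 scale (adjusted p = 0.0211, edgeR's quasi-likelihood test) with no overlap of the libraries. The parental change was -0.80 ± 0.25 (adjusted p = 0.0195), but -0.25 (adjusted p = 0.214) without replicate 1.

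TRIB3 is a pseudokinase that feeds back on ATF4, ATF3 is a stress-induced bZIP repressor and JDP2 is a related bZIP protein. TRIB3 (chr20:362835-397559) stood at 201.4, 82.3 and 112.8 CPM in untreated and at 86.9, 56.3 and 80.8 CPM in treated parental cells. In SDS22-degron cells it was at 54.1, 50.9 and 57.1 CPM untreated and 76.9, 58.9 and 70.9 CPM treated. The treated SDS22-degron libraries were all above the untreated ones, with a log2 fold change of 0.35 ± 0.22 that missed the threshold (adjusted p = 0.203, edgeR's quasi-likelihood test). The parental change of -0.82 ± 0.22 (adjusted p = 0.0077) was -0.39 (adjusted p = 0.0608) without replicate 1. ATF3 (chr1:212565334-212620777) stood at 44.0, 16.1 and 16.2 CPM in untreated and 13.7, 10.35 and 17.5 CPM in treated parental cells. It was higher in SDS22-degron cells, at 35.6, 41.8 and 43.2 CPM untreated and 47.1, 41.6 and 63.2 CPM treated. Dox/IAA did not change ATF3 beyond the threshold in SDS22-degron cells (0.33 ± 0.26, adjusted p = 0.296), and its parental change of -0.87 (adjusted p = 0.033) was -0.23 (adjusted p = 0.424) without replicate 1. JDP2 (chr14:75427716-75474111) stood at 31.2, 18.5 and 23.2 CPM in untreated and 14.8, 13.8 and 16.5 CPM in treated parental cells. In SDS22-degron cells JDP2 was at 19.5, 21.1 and 20.1 CPM untreated and 29.7, 20.98 and 26.1 CPM treated. JDP2 fell in parental cells by 0.69 (adjusted p = 0.00267) and missed the threshold in SDS22-degron cells at 0.34 ± 0.15 (adjusted p = 0.0683). The parental fall passed the test without replicate 1 as well (-0.48, adjusted p = 0.0177).

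The other tested stress regulators were ATF5, CEBPB, CEBPG and STC2. ATF5, a bZIP factor of the mitochondrial stress response, fell by 0.30 in SDS22-degron cells (adjusted p = 0.0218, edgeR's quasi-likelihood test) and stood at -0.04 in parental cells. The ATF4 partner CEBPG fell by 0.50 in parental cells (adjusted p = 0.00339), and by 0.35 without replicate 1. The secreted glycoprotein STC2 fell there by 0.93 (adjusted p = 0.000957), and by 0.53 (adjusted p = 0.000715) without replicate 1. CEBPB, a C/EBP factor, fell by 0.45 in parental cells (adjusted p = 0.0186) and stood at -0.25 (adjusted p = 0.131) without that library. ATF5 overlaps NUP62 on the opposite strand by 1062 bases. As a group, 11 of 12 tested regulators fell in parental cells at a median of -0.83 on the log2 scale, and 6 of 12 at a median of -0.37 without replicate 1, where the shares of all genes were 15.7% and 13.4%. In SDS22-degron cells, 2 fell, 1 rose and 9 did not pass the test, with a median of 0.24, which are smaller shares than the 25.5% lower and 26% higher of all genes.

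**Figure D2:**
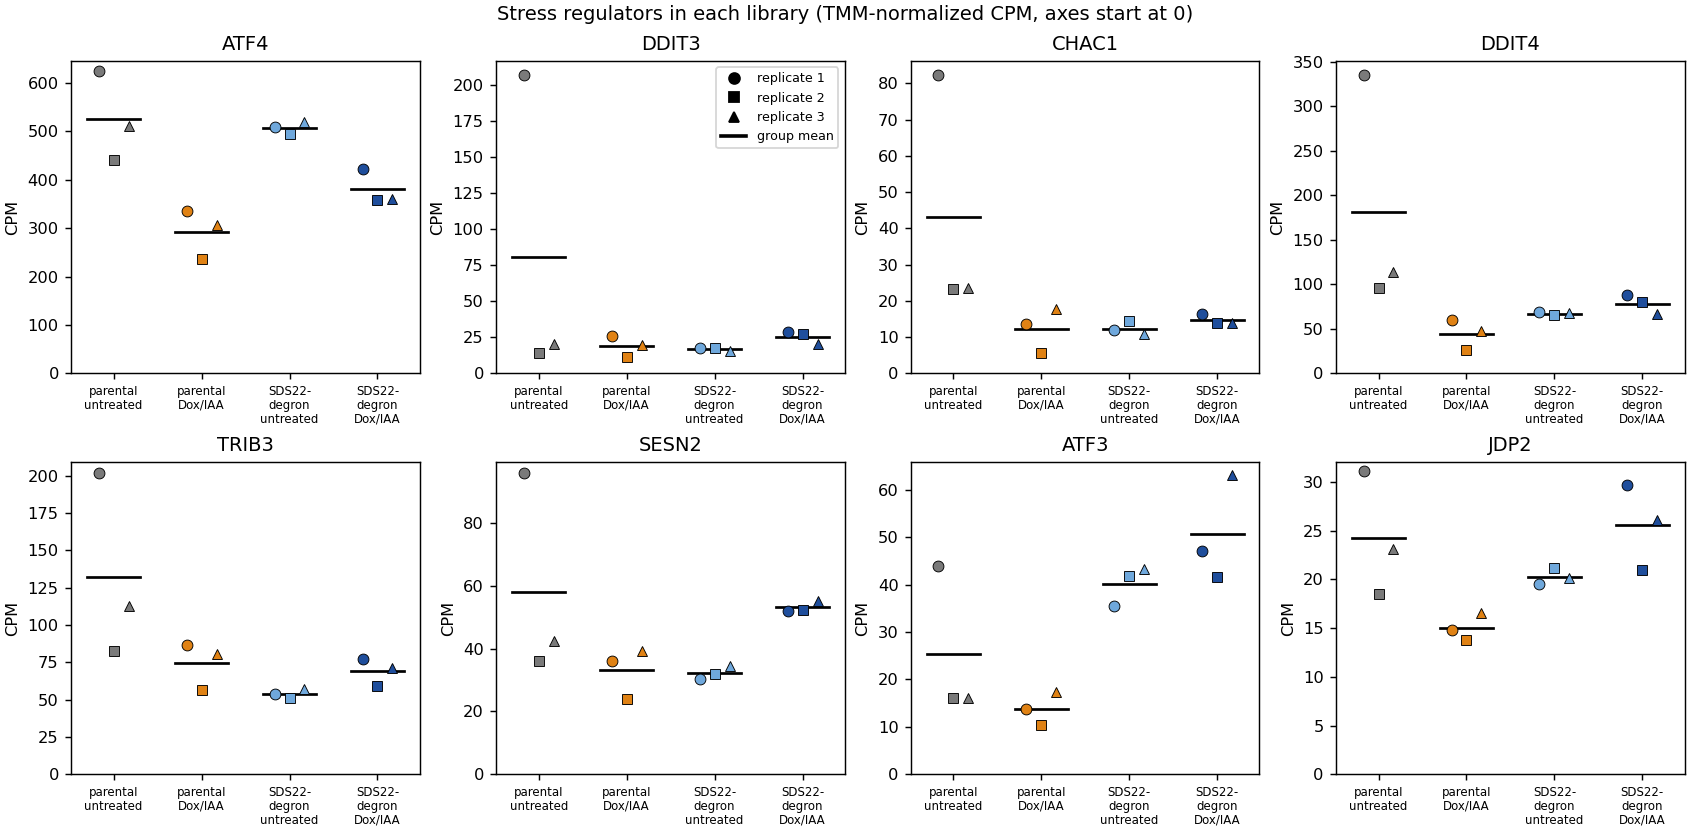
Level of 8 stress regulators in each of the 12 libraries, in TMM-normalized CPM on linear axes that start at 0. Symbols mark replicates and the black line is the group mean of 3 libraries. Untreated parental replicate 1 (grey circle) is the highest library for all of them except ATF3, where 2 treated SDS22-degron libraries are higher, and the 3 treated SDS22-degron libraries are above the untreated ones for DDIT3, TRIB3 and SESN2.

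The number of members that rose in SDS22-degron cells depended on the libraries that set the estimate of the spread. When the test used only the 6 libraries of SDS22-degron cells, 9 members were higher (27.6% of all genes) and 19 lower (27.5% of all genes). The 9 were the regulators ATF3, DDIT3, DDIT4, TRIB3, SESN2, CEBPB and JDP2 and the enzymes ALDH1L2 and CTH. Their fold changes in that fit ranged from 0.19 (CEBPB) to 0.81 (ALDH1L2) on the log2 scale. The 3 calls of the test over all libraries became 5 without untreated parental replicate 1, 0 without untreated SDS22-degron replicate 1, 1 without untreated SDS22-degron replicate 2 and 1 without treated SDS22-degron replicate 3. Of all genes, 4218 of 16944, 3832 of 16924, 3800 of 16943 and 3623 of 16930 were then higher. The 17 lower calls varied between 14 and 17 as each of the 12 libraries was left out, and those of all genes between 3717 and 4501. With the replicate number as a block, 4 members were higher, 2 of them stress regulators, and 18 lower (4606 and 4476 of 16657 genes).

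Of the 11 enzymes for amino-acid synthesis and one-carbon metabolism, 8 fell and 2 rose in SDS22-degron cells (25.5% and 26% of all genes), and 9 fell in parental cells (15.7% of all genes). Asparagine synthetase, ASNS (chr7:97852118-97872542), stood at 298.7, 254.9 and 255.7 CPM in untreated and 134.0, 132.6 and 117.5 CPM in treated parental cells. In SDS22-degron cells it was at 226.0, 202.5 and 213.9 CPM untreated and 159.4, 135.2 and 112.2 CPM treated. All treated libraries were below all untreated ones in both lines. ASNS fell by 1.07 ± 0.10 on the log2 scale in parental cells (adjusted p = 7.79e-07, edgeR's quasi-likelihood test) and by 0.66 ± 0.10 in SDS22-degron cells (adjusted p = 2.43e-05). Without untreated parental replicate 1 the parental value was -1.003 for ASNS, and it was -0.99 for PSAT1 and -0.44 for PHGDH, which are described next.

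The serine pathway split between its enzymes. PSAT1 (chr9:78297143-78330093), its aminotransferase, stood at 283.6, 239.9 and 215.5 CPM in untreated and 112.4, 115.3 and 118.4 CPM in treated parental cells. In SDS22-degron cells PSAT1 was at 227.6, 215.4 and 197.0 CPM untreated and 167.6, 138.2 and 120.8 CPM treated. It fell by 1.09 ± 0.11 in parental and by 0.58 ± 0.10 in SDS22-degron cells (adjusted p = 1.01e-06 and 0.000132, edgeR's quasi-likelihood test), without overlap of treated and untreated libraries. PHGDH (chr1:119659798-119744215), the first enzyme of the pathway, stood at 194.2, 184.4 and 187.4 CPM in untreated and 139.1, 147.6 and 125.5 CPM in treated parental cells. SDS22-degron cells had lower PHGDH, at 80.9, 73.0 and 79.9 CPM untreated and 91.2, 78.8 and 68.1 CPM treated. PHGDH fell by 0.46 in parental cells (adjusted p = 0.000622), while in SDS22-degron cells its change was 0.03 (95% interval -0.16 to 0.22) and the libraries overlapped. PSPH, the phosphatase of the last step, fell by 0.57 in parental and by 0.31 in SDS22-degron cells (adjusted p = 3.73e-05 and 0.00256). CTH (chr1:70411218-70439851), which makes cysteine from cystathionine, stood at 12.5, 9.54 and 10.5 CPM in untreated and 8.997, 7.505 and 9.99 CPM in treated parental cells. In SDS22-degron cells CTH was at 9.62, 9.08 and 11.1 CPM untreated and 14.95, 11.46 and 12.85 CPM treated. Its rise of 0.40 ± 0.14 there (adjusted p = 0.0217) came without overlap of the libraries, and its parental change was -0.29 (adjusted p = 0.139).

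In the mitochondrial folate pathway, SHMT2 fell by 0.45 in SDS22-degron cells and by 0.28 in parental cells, and MTHFD2 by 0.68 and 0.72. ALDH1L2, which follows MTHFD2 in this pathway, stood between 0.659 and 2.47 CPM in all libraries and rose by 0.82 ± 0.31 in SDS22-degron cells (adjusted p = 0.0346, edgeR's quasi-likelihood test). It shares 54414 bases with C12orf45 on the opposite strand, whose counts were 5050 in total against 230 for ALDH1L2. PYCR1, which makes proline, showed the largest fall of all members in SDS22-degron cells, from 386.7, 389.4 and 387.3 CPM to 240.6, 221.4 and 214.5 CPM (-0.78 ± 0.07, adjusted p = 2.55e-08). It fell by 0.62 in parental cells (adjusted p = 2.48e-06), and by 0.59 without replicate 1. ALDH18A1, upstream of PYCR1, fell by 0.32 in both lines, and the alanine aminotransferase GPT2 by 0.28 in SDS22-degron and 0.64 in parental cells (0.51 without replicate 1). The median of the group was -0.32 in SDS22-degron cells and -0.57 in parental cells, or -0.51 in the latter without replicate 1, where 9 of 11 fell (13.4% of all genes).

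**Figure D3:**
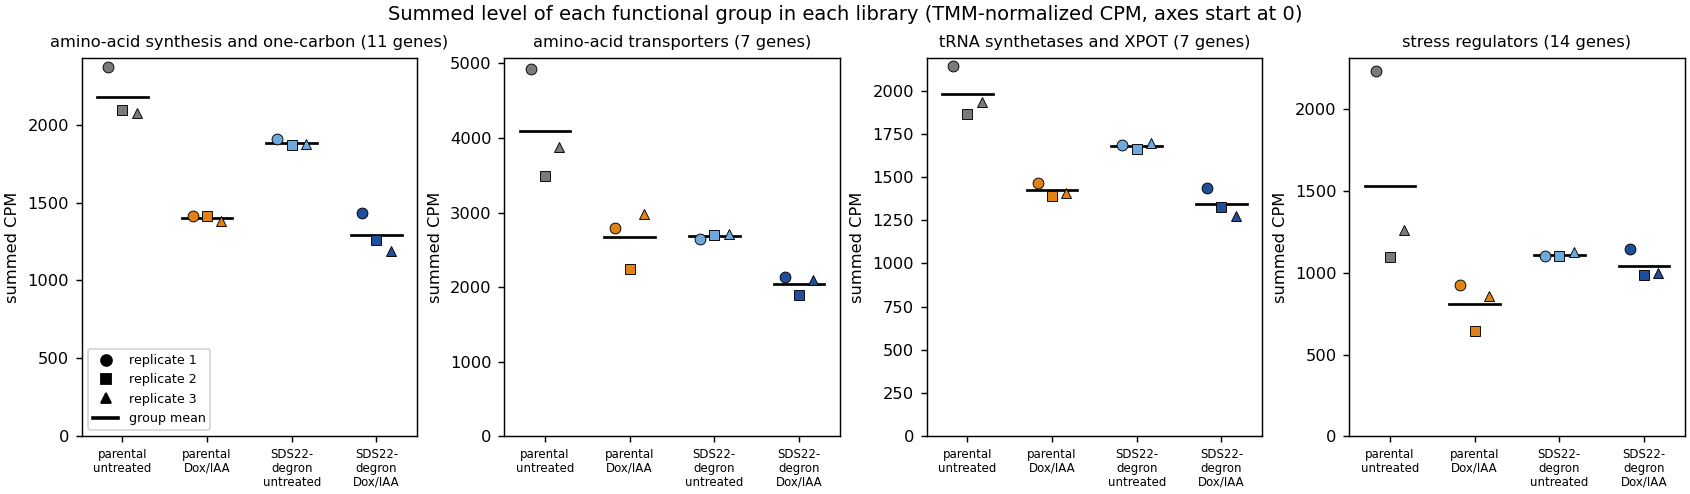
Summed level of the members of each functional group in each library, in TMM-normalized CPM on linear axes that start at 0. Symbols mark replicates and the black line is the group mean of 3 libraries. For synthesis enzymes (left), the 6 treated libraries sum to between 1188 and 1431 CPM and the 6 untreated ones to between 1870 and 2367 CPM. For stress regulators (right), untreated parental replicate 1 stands at 2234 CPM and the other 11 libraries between 647 and 1264 CPM.

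Transporters fell in parental cells in 6 of 7 cases (15.7% of all genes) and in SDS22-degron cells in 3 of 7 (25.5% of all genes). SLC7A5, the light chain of the leucine carrier LAT1, fell from 769.2, 771.7 and 808.8 CPM to 539.5, 449.4 and 419.6 CPM in SDS22-degron cells (-0.74 ± 0.09, adjusted p = 1.17e-06, edgeR's quasi-likelihood test). In parental cells it fell from 1221, 1058 and 1138 CPM to 673.6, 593.4 and 651.4 CPM (-0.83 ± 0.09, adjusted p = 2.02e-06, and -0.79 without replicate 1). Its partner SLC3A2 (chr11:62856102-62888875), the heavy chain, differed between the lines. SLC3A2 stood at 491.2, 311.9 and 316.1 CPM in untreated and 234.6, 211.1 and 205.2 CPM in treated parental cells. In SDS22-degron cells it was at 228.6, 225.9 and 245.5 CPM untreated and 233.3, 208.1 and 205.7 CPM treated, which overlapped. The parental fall was 0.78 ± 0.12 (adjusted p = 0.000141), and 0.54 without replicate 1 (adjusted p = 7.93e-05), against -0.11 (95% interval -0.38 to 0.15) in SDS22-degron cells.

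The cationic carrier SLC7A1 fell by 0.63 in SDS22-degron and 0.67 in parental cells, and the glutamine carrier SLC1A5, whose promoter core is printed above, by 0.21 and 0.33. The neutral carrier SLC38A2 fell by 0.53 in parental cells (adjusted p = 0.0172, edgeR's quasi-likelihood test) and stood at -0.33 (adjusted p = 0.115) without replicate 1. SLC6A9 (chr1:43991500-44031467), a glycine carrier, stood at 23.8, 13.5 and 16.9 CPM in untreated and 10.8, 9.40 and 12.7 CPM in treated parental cells. In SDS22-degron cells SLC6A9 was at 11.7, 14.99 and 13.5 CPM untreated and 15.2, 13.2 and 13.8 CPM treated. It fell by 0.72 in parental cells (adjusted p = 0.00345, and by 0.48 without replicate 1) and overlapped in SDS22-degron cells (0.07, adjusted p = 0.762). SLC6A9 shares 5029 bases with CCDC24 on the opposite strand. SLC1A4 (chr2:64988477-65023865), which carries alanine, serine and cysteine, stood at 20.7, 14.7 and 17.1 CPM in untreated and 13.95, 13.3 and 14.6 CPM in treated parental cells. It was at 20.6, 20.01 and 23.5 CPM in untreated and 23.6, 18.4 and 18.9 CPM in treated SDS22-degron cells. SLC1A4 passed the test in neither line (-0.32, adjusted p = 0.0645, in parental and -0.07, adjusted p = 0.654, in SDS22-degron cells). With the replicate number as a block, the parental value of SLC1A4 was -0.32 (adjusted p = 0.0313). The median of the transporters was -0.21 in SDS22-degron and -0.67 in parental cells, or -0.48 without replicate 1, where 5 of 7 fell (13.4% of all genes).

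All 7 genes of tRNA charging and export fell in parental cells, and 4 of them, EPRS, XPOT, MARS and GARS, in SDS22-degron cells, against 15.7% and 25.5% of all genes. The falls in SDS22-degron cells were 0.54 for EPRS, 0.49 for XPOT, 0.40 for MARS and 0.37 for GARS, and those in parental cells 0.49, 0.45, 0.47 and 0.46, so that the pairs differed by 0.08 or less (interaction adjusted p from 0.581 to 0.823, 95% intervals within -0.25 to 0.30). AARS (chr16:70252295-70289543), which charges alanine, stood at 439.1, 325.2 and 385.4 CPM in untreated and 277.3, 216.2 and 260.2 CPM in treated parental cells. In SDS22-degron cells AARS was at 245.5, 231.6 and 236.2 CPM untreated and 228.8, 208.8 and 188.0 CPM treated. AARS fell by 0.61 ± 0.10 in parental cells (adjusted p = 0.000223, edgeR's quasi-likelihood test, and by 0.51 without replicate 1) and stood at -0.19 (adjusted p = 0.133) in SDS22-degron cells, although its treated libraries lay below the untreated ones.

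SARS (chr1:109213918-109238169), for serine, stood at 222.1, 166.8 and 194.1 CPM in untreated and 171.5, 141.5 and 151.3 CPM in treated parental cells. In SDS22-degron cells SARS was at 142.9, 150.4 and 156.6 CPM untreated and 174.0, 160.6 and 153.4 CPM treated, with overlap. It fell by 0.33 in parental cells (adjusted p = 0.0107, edgeR's quasi-likelihood test), and stood at -0.23 (adjusted p = 0.0608) without replicate 1. WARS (chr14:100333788-100376805), for tryptophan, stood at 175.0, 159.6 and 143.7 CPM in untreated and 117.4, 132.1 and 106.8 CPM in treated parental cells. Its levels in SDS22-degron cells were 126.5, 134.2 and 141.7 CPM untreated and 128.8, 129.3 and 121.6 CPM treated. WARS fell by 0.42 in parental cells (adjusted p = 0.000801, and by 0.36 without replicate 1) but stood at -0.08 (95% interval -0.26 to 0.09) in SDS22-degron cells. The median of the group was -0.37 in SDS22-degron and -0.46 in parental cells, or -0.40 in the latter without replicate 1, where 6 of 7 fell (13.4% of all genes).

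Whether the effect of Dox/IAA differed between the lines is given by the interaction, the log2 effect in SDS22-degron cells minus that in parental cells. By edgeR's quasi-likelihood test, the interaction passed as positive for 13 of 37 members (6.03% of all genes) and as negative for 0 of 37 (8.35% of all genes). At an unadjusted p under 0.05, 22 were positive and 0 negative, where 4779 of 16657 genes passed in either direction. With the likelihood ratio test and DESeq2, 0 passed as negative (1561 and 1349 of 16657 genes). The 13 comprised 7 stress regulators, 3 enzymes, 2 transporters and 1 synthetase. All group medians were positive, with 1.10 for the stress regulators, 0.36 for the enzymes, 0.25 for the transporters and 0.08 for the tRNA group, against -0.002 for all tested genes. The interaction was 2.25 ± 0.48 for DDIT4, 2.05 ± 0.58 for CHAC1 and 1.52 ± 0.35 for SESN2. It was 1.2 ± 0.39 for ATF3, 1.17 ± 0.31 for TRIB3, 1.02 ± 0.22 for JDP2 and 0.65 ± 0.19 for CEBPB. DDIT3 missed the threshold in spite of the largest estimate (2.65 ± 0.94, adjusted p = 0.0662).

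Without untreated parental replicate 1, the interaction passed the test as positive for 7 members (4.09% of all genes) and as negative for 0 (6.69% of all genes). The 7 were DDIT4 (1.45), CHAC1 (1.16), SESN2 (0.95), JDP2 (0.79), TRIB3 (0.73), PHGDH (0.46) and SLC3A2 (0.41), all among the 13. The medians were then 0.48 for the stress regulators, 0.22 for the enzymes, 0.05 for the transporters and 0.08 for the tRNA group. The count was also 7, 8 and 8 without untreated SDS22-degron replicate 1, 2 and 3 (711 of 16924, 672 of 16943 and 758 of 16922 genes). It was 6 without treated SDS22-degron replicate 1 (856 of 16919 genes). It was 21 when the replicate number was fitted as a block over all 12 libraries (1398 of 16657 genes). Of the 6 that no longer passed the test without the parental library, ATF3 stood at 0.54 and CEBPB at 0.43. ATF4 itself did not pass the test (0.43 ± 0.17, adjusted p = 0.0943, and 0.27 without the parental library). Under the replicate block, 11 of 12 tested stress regulators passed as positive (1398 of 16657 genes) and 0 as negative (1730 of 16657 genes). These 11 included ATF4 and DDIT3.

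**Figure D4:**
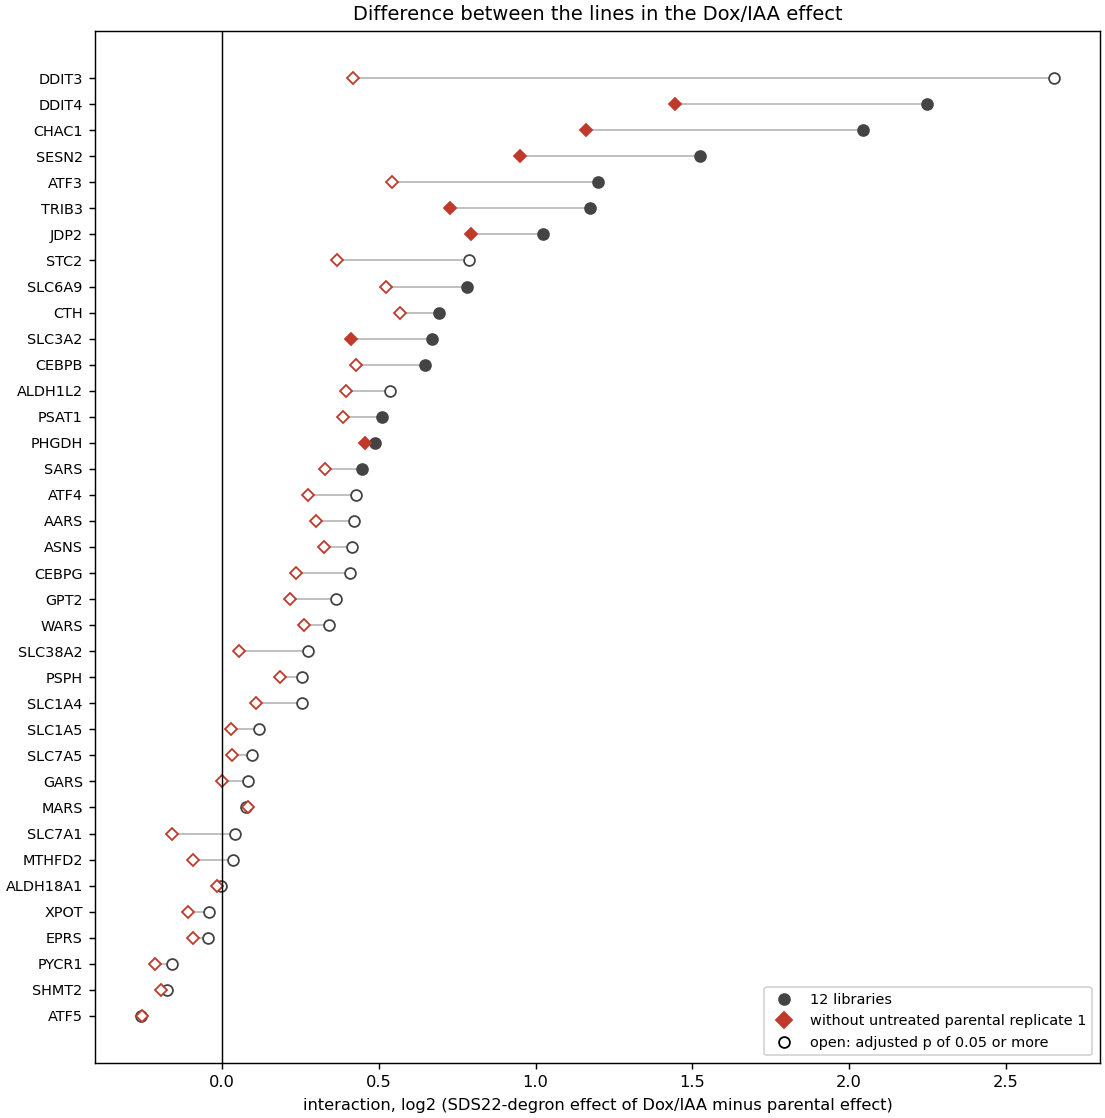
Interaction of cell line and Dox/IAA for the 37 tested members (x axis, log2), ordered by the estimate from all 12 libraries (grey circles), with the estimate without untreated parental replicate 1 (red diamonds). Filled symbols have an adjusted p under 0.05. DDIT3 moves from 2.65 to 0.42 and the 5 stress regulators DDIT4, CHAC1, SESN2, TRIB3 and JDP2 are filled in both estimates.

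The treated lines were compared directly, which leaves untreated parental cells out of the contrast but not out of the shared estimate of the spread. Of 37 members, 8 were higher (21.8% of all genes) and 8 lower (23.1% of all genes) in SDS22-degron cells by edgeR's quasi-likelihood test. The higher members were ATF3 (1.87 ± 0.28, adjusted p = 3.53e-05), JDP2 (0.77), SESN2 (0.68), CTH (0.57), SLC1A4 (0.54), ATF4 (0.38), CEBPG (0.32) and PSAT1 (0.30). The lower ones were PHGDH (-0.79 ± 0.09, adjusted p = 1.16e-06), ATF5 (-0.77), SLC38A2 (-0.64), SLC7A5 (-0.45), GPT2 (-0.36), AARS (-0.27), PYCR1 (-0.26) and EPRS (-0.26). Both counts were near the shares of all genes. Among the lower members, SLC7A5, GPT2 and AARS lie on chromosome 16, whose 726 tested genes had a median of -0.31 in this comparison. What part this has in their values was not tested. ASNS did not differ beyond the threshold (0.08, 95% interval -0.13 to 0.30). ATF3 was the only member beyond a log2 difference of 1. The 8 higher calls, 5 of them stress regulators, became 5 with 2 regulators without treated parental replicate 2 (3349 of 16937 genes). They became 4 without treated SDS22-degron replicate 1 (3409 of 16919 genes). Without untreated parental replicate 1, 11 were higher, 7 of them stress regulators, and 8 lower (3687 and 3904 of 16944 genes). With only the treated libraries in the fit, 11 were higher, 7 of them stress regulators, and 8 lower (3495 and 3459 of 16194 genes). Under the replicate block, 11 were higher and 8 lower (3902 and 4123 of 16657 genes). The higher ones included DDIT4 (0.87, adjusted p = 0.00742), CEBPB (0.27, adjusted p = 0.0462) and STC2 (0.35, adjusted p = 0.0496).

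Before treatment, 18 of 37 members were lower in SDS22-degron cells than in parental cells (15% of all genes) and 0 were higher (13.2% of all genes), as tested by edgeR's quasi-likelihood test. At an unadjusted p under 0.05, 2 were higher and 20 lower, where 6447 of 16657 genes passed in either direction. DESeq2 and the likelihood ratio test called 0 higher (2042 and 2356 of 16657 genes). With the replicate number as a block, 2 were higher and 21 lower (2550 and 2832 of 16657 genes). This contrast shares the untreated parental libraries with the parental effect and the interaction. Without replicate 1 of these, 12 were lower (11.6% of all genes) and 2 higher (11.2% of all genes), the latter being ATF3 (1.33, adjusted p = 5.59e-05) and SLC1A4 (0.43, adjusted p = 0.0185). PHGDH showed the clearest difference (-1.28 ± 0.09, adjusted p = 9.09e-09), and its value was -1.25 without that library. DDIT3 went from -2.24 (adjusted p = 0.0145) to -0.003 (adjusted p = 0.996). TRIB3 (-1.29 and -0.84) and CHAC1 (-1.79 and -0.91) passed the test both ways. GPT2 (-0.73), AARS (-0.69) and SLC7A5 (-0.54) lie on chromosome 16, and their values were -0.58, -0.57 and -0.48 without that library. All 726 tested genes of that chromosome had a median of -0.30 between the untreated and -0.31 between the treated lines. Genes of chromosome 1, where PHGDH lies, had a median of -0.13 and -0.11. What part such chromosome-wide differences have in the values of these members was not tested.

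Other genes of the pathway were read from 7 further lists with 64 genes, of which 61 were tested. Their counts stand against 26% higher and 25.5% lower among all genes in SDS22-degron cells, and 15.9% and 15.7% in parental cells. Of the 4 upstream kinases, EIF2AK3 (PERK) rose by 0.47 in SDS22-degron cells (adjusted p = 0.0185, edgeR's quasi-likelihood test), while EIF2AK2 (0.20) and EIF2AK4 (-0.07) did not pass the test. By contrast, all 8 subunits of eIF2 and its exchange factor eIF2B were lower in SDS22-degron cells, with a median of -0.43, and 4 of 8 in parental cells, with or without untreated replicate 1. EIF2S1, which encodes eIF2alpha, fell by 0.54, EIF2S3 by 0.53 and EIF2S2 by 0.39. For EIF2S1 the interaction was negative (-0.46, adjusted p = 0.00246, and -0.44 without that library). Of the 5 genes for the eIF2alpha phosphatases, PPP1R15A (GADD34) rose by 0.49 (adjusted p = 0.0157), whereas PPP1R15B (CReP) fell by 0.35 and PPP1CC, a catalytic subunit, by 0.42. The other 2, the catalytic subunits PPP1CA and PPP1CB, did not pass the test.

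Among 18 tested further targets of ATF4 or CHOP, 5 rose and 7 fell in SDS22-degron cells, and 1 rose and 11 fell in parental cells (1 and 10 without untreated replicate 1). The 5 that rose are close to the share of all genes. The autophagy gene MAP1LC3B rose by 1.13 (adjusted p = 3.25e-09, edgeR's quasi-likelihood test), and MTHFD1L of the mitochondrial folate pathway and the synthetase IARS fell by 0.97 and 0.69. The interaction passed the test as positive in 8 of these 18 against 6.03% of all genes (MAP1LC3B 0.78), and in 6 without that library against 4.09% (MAP1LC3B 0.69). Cytosolic synthetases outside the members fell in 7 of 8 cases in SDS22-degron cells (FARSB by 1.03, KARS by 0.62, FARSA by 0.56) and in 5 of 8 in parental cells, with or without the library. Of 7 genes for mitochondrial chaperones, proteases and the stress relay, 5 fell in SDS22-degron and 3 in parental cells, with or without the library, with HSPD1 (-1.11), HSPE1 (-1.07) and LONP1 (-0.62) in the former. Of the 12 ATF6 and XBP1 targets, the co-chaperone DNAJC3 rose in SDS22-degron cells (0.41, adjusted p = 0.0408) and the other 11, such as SDF2L1 (-0.57) and DNAJB9 (0.67), did not pass the test. All groups share the estimate of the spread. Without untreated parental replicate 1, 4 of the 12 were higher and 2 lower in SDS22-degron cells (4218 and 4459 of 16944 genes). In parental cells 4 of the 12 fell. These were HERPUD1 (-1.44), HSPA5 (-0.80), SDF2L1 (-0.76) and XBP1 (-0.46), named after their values were seen, and none of the 4 passed the test without untreated replicate 1, where they stood at -0.06, -0.21, -0.25 and -0.15 (adjusted p from 0.063 to 0.642).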

How the data were processed

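Poly-A selected, stranded libraries were sequenced as 75 bp single reads. Raw gene counts, not normalized, were deposited by the authors together with the GC content of each gene in percent. The submitters' processing notes name cutadapt 1.15, Bowtie2 2.3.3.1, STAR 2.5.2b, SAMtools 1.5, featureCounts 1.5.3 and GRCh38. Their roles and the strand setting are not given in the sources used here. Genes were filtered with filterByExpr (minimum count 10), normalized by TMM and tested with the quasi-likelihood F test of edgeR 4.0.16 (R 4.3.3). The design held 4 group means over 12 libraries. Adjusted p-values follow Benjamini and Hochberg over all 16657 tested genes. The common biological coefficient of variation was 7.48%. Replicates differed beyond counting noise (chi-square per degree of freedom 2.16 to 9.73). Fold changes are printed ± SE or with 95% intervals.

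Values per library are given for ATF4, DDIT3 and ASNS, for the 3 members per group with the smallest interaction p, and for members past the study's cut-off (unadjusted p under 0.05, absolute log2 fold change above 1) in SDS22-degron cells, between the treated lines or in the interaction. Those of SLC7A5 and PYCR1 were added after their values were seen. Of each further list, the 3 genes with the smallest p in SDS22-degron cells are named. The members and lists were chosen with earlier results of these data known. Alternatives comprised DESeq2 1.42.0, a likelihood ratio test, other scalings, filters and blocks, and left-out libraries. The labels do not tie replicate numbers across groups. Deviations of same-numbered libraries correlated above 0.1 in all 3 pairs of untreated and treated parental cells (0.124 to 0.246) and of the treated lines (0.101 to 0.138), so that blocked values are given there where they change a call, and in 1 of the 12 pairs of the other groups. The procedure was tested on simulated data. Promoter sequences are those of RefSeq (GRCh38.p14).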

Additional observations from a re-analysis of the deposited data

Results flagged for a closer look

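The effect of Dox/IAA differed between the lines by the interaction test for 13 members (edgeR's quasi-likelihood test, adjusted over all tested genes). On the log2 scale the interaction was 1.2 for ATF3, 2.25 for DDIT4, 1.17 for TRIB3, 1.52 for SESN2, 2.05 for CHAC1, 0.65 for CEBPB and 1.02 for JDP2. It was 0.51 for PSAT1, 0.49 for PHGDH, 0.69 for CTH, 0.67 for SLC3A2, 0.78 for SLC6A9 and 0.45 for SARS. Without untreated parental replicate 1, the adjusted p was 0.172 for ATF3, 0.0933 for CEBPB, 0.082 for PSAT1, 0.0829 for CTH, 0.0966 for SLC6A9 and 0.082 for SARS, and between 0.0021 (DDIT4) and 0.0415 (CHAC1) for the other 7.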

How the results depend on the processing

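With each library left out in turn, the DDIT3 change by Dox/IAA in parental cells ranged from -2.57 (without untreated parental replicate 2) to 0.14 (without untreated parental replicate 1), against -2.07 with all libraries. It turned to 0.41 when untreated parental replicate 1 and treated parental replicate 2 were both left out, an alternative chosen after seeing the data. No other fold change of a member that had passed the test turned its sign. Leaving out each library in turn gave 0 to 5 members higher in SDS22-degron cells upon Dox/IAA, 6 to 19 in the interaction, 4 to 11 between the treated and 0 to 2 between the untreated lines. Of 16896 to 16947 tested genes, 3623 to 4723, 672 to 1176, 3109 to 3699 and 1607 to 2425 were higher in these comparisons. Members higher in SDS22-degron cells numbered 1 with DESeq2 (4126 of 16657 genes) and 8 without a filter (4331 of 30524 genes). They numbered 9 with only the groups compared (4473 of 16222 genes) and 8 without both parental libraries (4394 of 16891 genes). In the interaction they numbered 21 without a filter (1216 of 30524 genes) and 21 with the replicate number as a block (1398 of 16657 genes). They numbered 21 with GC correction and block (1724 of 16657 genes), and 8 without both libraries (543 of 16891 genes). Between the treated lines 13 were higher without a filter (3472 of 30524 genes). Between the untreated lines 1 was higher without a filter (2125 of 30524 genes) and 2 with the block (2550 of 16657 genes). There, 1 was higher with GC correction and block (2351 of 16657 genes), and 2 without both libraries (2149 of 16891 genes). With the study's cut-off, 0 members were higher and 0 lower in SDS22-degron cells, where 7.83% of all genes passed it in either direction. In parental cells 5 were lower (3.14% of all genes in either direction), and 7 were positive in the interaction (3.60%). Between the treated lines 1 was higher and 0 lower (6.63%), and between the untreated lines 5 were lower (4.14%). These counts shifted since the cut-off asks for an absolute log2 fold change above 1. The cause of the other shifts was not tested. The replicate block changed the calls of SLC1A4 in the parental effect and of DDIT4, CEBPB and STC2 between the treated lines, and no other member's call in these comparisons. Over all groups, same-numbered libraries correlated in their deviations by -0.06 to 0.25, over 0.1 in 7 of 18 pairs, and each of 12 libraries correlated best with its own number. Genes at the level of ALDH1L2 are limited by depth.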
